A study of Mus musculus with 8 samples.

Results

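The genes described here are 50 components of the skeletal muscle sarcomere, measured in RNA from mouse interscapular brown adipose tissue. They were taken by symbol from a fixed list, and all 50 were found among the 33641 gene symbols in the deposited tables. Each of the 8 libraries was made from poly(A) RNA of 1 labelled animal of strain C57BL/6 at an age of 28 weeks. The control group, labelled wild-type, held libraries A7, A8 and A12, and the methods describe controls as littermates that lacked either cre or the floxed allele. The other group, labelled adipo-HuR-/- and written Adipo-HuR-/- below, held libraries A24, A25, A26, A29 and A31 from mice in which floxed HuR is deleted by a cre transgene under the adiponectin promoter, which is active in adipocytes and not in muscle fibres. The total of estimated counts ranged from 17558090 in A25 and 18264754 in A24 to 67498055 in A26, and lay between 50673814 and 60622522 in the other libraries. Levels are given as CPM, the counts scaled to a common library size with TMM factors, and where genes are compared with each other as TPM, which also corrects for transcript length.

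HuR is encoded by Elavl1, the targeted gene, and its level was read first as a check of the labels. Elavl1 was at 50.6, 48.0 and 49.2 CPM in control libraries A7, A8 and A12. Under the label Adipo-HuR-/- the levels were 61.9, 47.3, 43.4, 61.3 and 61.2 CPM in A24, A25, A26, A29 and A31. The ranges overlapped and the total was not lower under the knockout label (log2 difference 0.16, SE 0.16, edgeR adjusted p = 0.667), and the group names below are those of the labels. The study's text gives Atp2a1, a calcium pump of muscle, as reduced in Adipo-HuR-/- mice, and under the labels used here its log2 difference was -4.42 (SE 1.98, edgeR adjusted p = 0.2903). Atp2a1 was at 482, 271 and 0.188 CPM in A7, A8 and A12, at 0.056, 0.522, 0.148 and 0.890 CPM in A24, A25, A26 and A29, and at 55.9 CPM in A31, so that the groups overlapped. A total over the whole tissue also holds Elavl1 RNA from cells other than adipocytes, and the deleted exon was not measured separately.

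The sarcomere is the contractile unit of striated muscle, in which thick filaments of myosin pull on thin filaments of actin anchored at the Z-disc, with titin and the M-band holding the lattice in register. Most of its proteins exist as isoforms made by separate genes for fast fibres, for slow fibres and the heart, and for developing muscle. Brown adipocytes arise from a lineage related to that of skeletal muscle, but a brown adipocyte has no sarcomere, and the interscapular depot lies directly on muscles of the back. Adipose tissue also holds vessel smooth muscle, which uses part of the same gene families.

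The 50 genes fell into 2 kinds of library. Their summed level was 5444 CPM in A7 and 3585 CPM in A8, both controls, and 752 CPM in A31, which is labelled Adipo-HuR-/-. It was 242 CPM in the third control, A12, and 257, 188, 205 and 232 CPM in A24, A25, A26 and A29. As a share of all counts the genes took 0.555% in A7, 0.274% in A8 and 0.0845% in A31, against 0.0205% to 0.0249% in the other 5 libraries. The high levels were thus not divided by the label: 1 of 3 control libraries was low and 1 of 5 libraries labelled Adipo-HuR-/- was raised. In bulk tissue fewer muscle fibres and less RNA per fibre cannot be told apart.

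**Figure D1:**
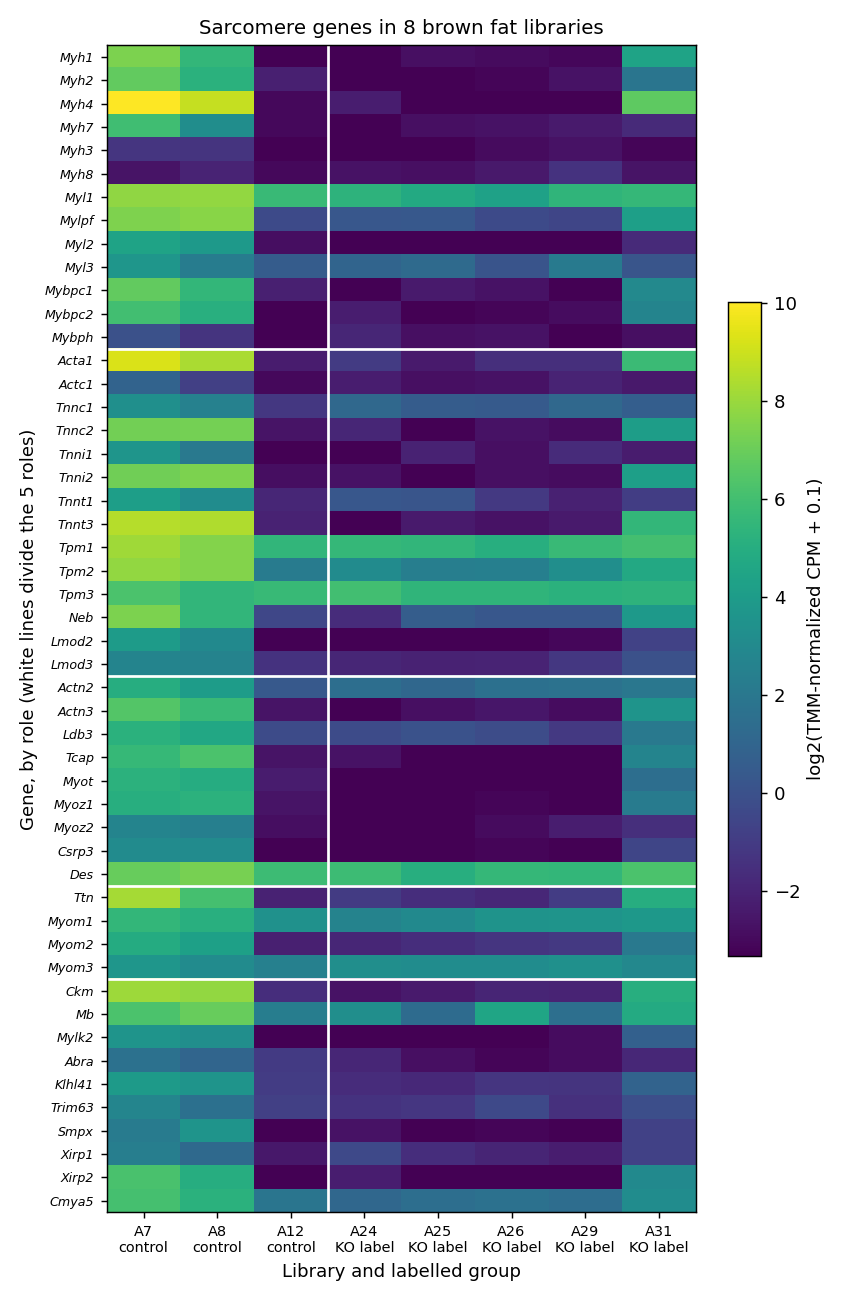
Level of each of the 50 sarcomere genes (rows, by role) in the 8 libraries (columns, controls left of the white line), as log2 of TMM-normalized CPM plus 0.1. A7 and A8 are high for nearly all rows and A31 is intermediate, while Myl1, Tpm1, Tpm3 and Des are at 10 CPM or more in every library.

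The order A7 and A8 above every other library held for 47 of the 50 genes. With TMM, A7 was the highest library for 40 genes and A8 for 9, and A31 was the highest of the 5 Adipo-HuR-/- libraries for 39. The division between A7 and A8 depends on the scaling. By total counts Myl1, for example, was higher in A7 (231 CPM) than in A8 (180 CPM). A31 lay above control A12 for 46 genes. A12 in turn lay inside the range of A24, A25, A26 and A29 for 29 genes, above it for 12 and below it for 9. In these 5 low libraries 35 of the genes stayed under 1 CPM throughout, and 12 did not pass 3 counts in any of them. At the other end 11 genes (Myl1, Myl3, Tpm1, Tpm2, Tpm3, Actn2, Des, Myom1, Myom3, Mb and Cmya5) had at least 1 CPM in every library. Myl1, Tpm1, Tpm3 and Des together made up 69.3% to 84.3% of the summed level in A12, A24, A25, A26 and A29, but 12.9% in A7, 17.5% in A8 and 30.7% in A31.

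The comparison by label asks which genes differ between control brown fat and brown fat with HuR deleted in adipocytes. The summed level was 3090.3 CPM ± 2636 (SD, n = 3) in the controls and 327 CPM ± 239 (SD, n = 5) in the Adipo-HuR-/- group, so that the spread among controls was nearly as large as their mean. Of the 50 genes 46 passed the filter on low counts, Myh3, Myh8, Mybph and Actc1 did not, and 45 of the 46 had a negative log2 difference. The median log2 difference was -4.20 over these 46 and 0.00098 over all 14851 genes tested. Past the threshold of the study (adjusted p of at most 0.05 and a change of at least 1.5-fold) were 4 of the 46, all lower in the Adipo-HuR-/- group, namely Abra, Myh7, Myl1 and Myl2, while 0.465% of all genes tested were called lower. At an unadjusted p under 0.05, 41 of the 46 were lower, against 9.41% of all genes. The 41 are not separate events, as most of these genes are high in the same libraries, A7 and A8. The genes were also listed with earlier results of these data known, so the 2 shares are a description only. DESeq2 called 19 of the genes (2.98% of all genes called lower), giving no p for Csrp3, Tnnc2 and Tnnt3, and edgeR's likelihood ratio test called 22 (2.48% called lower), whereas limma voom with quality weights called 0 (0.66% of all genes called lower). By voom 5 of the 46 had an unadjusted p under 0.05, where 9.54% of all genes were lower at that p.

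The calls lay close to the threshold, with edgeR adjusted p from 0.0444 to 0.0478, and leaving out most single libraries ended them. Without control A12, 23 of the genes were past the threshold (1.07% of all genes called lower), and without A8 it was 1 (0.601% called lower). Leaving out A7, A24, A25, A26, A29 or A31, one at a time, left 0 calls by edgeR's quasi-likelihood test, with 26, 33, 31, 32, 32 and 22 genes at an unadjusted p under 0.05, where 7.24% to 9.6% of all genes were lower at that p. Over all genes, the calls lower were 9, 54, 9, 7, 10 and 12 in these fits, against 69 with all libraries. Without A24, A25, A26 or A29 the log2 difference ran from -7.85 to -7.67 for Myh7 and from -2.36 to -2.13 for Myl1. That of Myh7 was -5.58 without A7 and -3.92 by voom. Without A31 the differences of several genes were larger, at -7.22 for Mylpf, -8.68 for Ttn, -6.12 for Neb and -10.29 for Ckm, none of them past the threshold. Without A31 only 26 of the 50 passed the filter. With A7, A8 and A31 all left out, 27 genes passed the filter, 11 of them were lower in the Adipo-HuR-/- group, and the median log2 difference was 0.65. That fit has 1 control library, A12, whose spread is taken from the other group, and the libraries were left out for their high sarcomere level, so that its values are a description only. Over the settings in which each could be fitted, Myh7 passed the threshold in 9 of 16 alternatives (adjusted p 3.7e-05 to 0.451 by edgeR, limma or DESeq2), Myl1 in 7 of 19 (2.4e-05 to 0.440), Myl2 in 8 of 17 (0.0017 to 0.297) and Abra in 8 of 19 (1.8e-05 to 0.342). The upper values for Myl1 and Abra come from the fit with 1 control library, and in the other fits their adjusted p was at most 0.188 and 0.153 (both by edgeR). Under total counts without TMM, the median of all genes moved by 0.23 on the log2 scale and 25 of 121 calls were lower, against 69 of 105 with TMM, and 3 of the sarcomere genes were called.

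Every control library lay above every Adipo-HuR-/- library for 2 of the 50 genes, Myl1 and Abra, where the background is 6.09% of all genes tested. Both gave p = 0.0357 in the two-sided exact permutation test, the smallest that 56 divisions of 8 libraries into 3 and 5 allow. In both the lowest control was A12 and the highest Adipo-HuR-/- library was A31. For Myl1 this depends on the scaling, since by total counts, an alternative chosen after seeing the data, A31 was above A12 (53.9 and 49.5 CPM) and the two-sided exact permutation p was 0.0714, while the groups of Abra did not overlap under either other scaling. For the remaining 48 genes the groups overlapped, and their exact permutation p ranged upward from 0.0714.

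Thick filament genes (13 listed, 10 past the filter) were lower in 10 of 10, with a median log2 difference of -4.66, and 3 passed the threshold. Myh4, the heavy chain of the fastest fibres, was at 1048 CPM in A7 and 457 CPM in A8 but at 0.021 CPM in A12. In the Adipo-HuR-/- group Myh4 was at 0.113 CPM in A24, at 0 in A25, A26 and A29, and at 106 CPM in A31. The groups overlapped, as A12 lay below A24 and A31 (log2 difference -4.55, SE 2.45, edgeR adjusted p = 0.377). Myh1, the intermediate fast chain, was at 171, 45.3 and 0 CPM in A7, A8 and A12, at 0, 0.047, 0.030 and 0.019 CPM in A24, A25, A26 and A29, and at 21.2 CPM in A31. Myh2, the chain of fast oxidative fibres, was at 113, 37.5 and 0.125 CPM in the controls, at 0, 0, 0.015 and 0.057 CPM in A24, A25, A26 and A29, and at 3.54 CPM in A31. Both had the order of Myh4, with overlap between the groups (log2 difference -4.01 and -5.88, SE 1.97 and 1.66, edgeR adjusted p = 0.338 and 0.115).

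Myh7, the heavy chain of slow fibres, was at 60.7 CPM in A7, 9.29 CPM in A8 and 0.021 CPM in A12. It was at 0 in A24 and at 0.047, 0.059, 0.095 and 0.197 CPM in A25, A26, A29 and A31, the last being 12.6 counts. Myh7 was past the threshold (log2 difference -7.86, SE 1.48, edgeR adjusted p = 0.0474) although A12 lay below 4 of the 5 Adipo-HuR-/- libraries, and its exact permutation p was 0.179. Unlike the fast heavy chains, Myh7 was at 0.197 CPM or less in A31 as well as in the low libraries.

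Myl2, the slow and cardiac regulatory light chain, was at 21.1, 14.9 and 0.042 CPM in A7, A8 and A12. In the Adipo-HuR-/- group it was at 0 in A24, A25, A26 and A29 and at 0.197 CPM, 13 counts, in A31 (log2 difference -7.71, SE 1.47, edgeR adjusted p = 0.0478). Its fast partner Mylpf was at 175, 203 and 0.69 CPM in the controls and at 1.13, 1.19, 0.711, 0.587 and 18.8 CPM in A24, A25, A26, A29 and A31. Both genes were highest in A7 and A8 and next highest in A31, where Mylpf was at 18.8 CPM and Myl2 at 0.197 CPM.

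Myl1, the fast essential light chain, was the thick filament gene with the highest mean level per length (149 TPM). It was at 227, 236 and 52.4 CPM in A7, A8 and A12 and at 39.0, 27.8, 19.9, 42.1 and 47.9 CPM in A24, A25, A26, A29 and A31. With TMM the groups did not overlap, with A12 just above A31, and by total counts that order turned (log2 difference -2.28, SE 0.43, edgeR adjusted p = 0.0474). Its slow and cardiac partner Myl3 had the smallest difference of the role, at 12.9, 4.81 and 1.36 CPM in the controls and 1.86, 2.37, 1.01, 4.36 and 1.06 CPM in A24, A25, A26, A29 and A31 (log2 difference -1.58, SE 0.65, edgeR adjusted p = 0.250). In Myl3 A31 was among the lowest libraries and A29 was near A8.

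The myosin binding proteins C brace the thick filament. Mybpc1, the slow type by name, was at 114, 46.0 and 0.125 CPM in the controls and at 0, 0.095, 0.059, 0 and 7.74 CPM in A24, A25, A26, A29 and A31. Mybpc2, the fast type, was at 62.4, 33.7 and 0 CPM in the controls and at 0.113, 0, 0.015, 0.038 and 6.30 CPM in the same order. Both were raised in A31, and neither passed the threshold (edgeR adjusted p = 0.182 and 0.216).

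Thin filament genes (14 listed, 13 past the filter) were lower in 13 of 13, with a median log2 difference of -4.16 and none past the threshold by edgeR's quasi-likelihood test (11 at an unadjusted p under 0.05, 5 called by DESeq2, 6 by the likelihood ratio test and 0 by voom). Acta1, skeletal muscle actin, was at 619, 319.8 and 0.104 CPM in A7, A8 and A12. It was at 0.395, 0.095, 0.252, 0.246 and 54.0 CPM in A24, A25, A26, A29 and A31. The groups overlapped, as A12 lay below A24, A26, A29 and A31 (log2 difference -4.80, SE 2.08, edgeR adjusted p = 0.273). Without A31 the log2 difference was -10.31 (edgeR adjusted p = 0.07). Over its alternatives the adjusted p of Acta1 (edgeR, limma or DESeq2) ran from 0.07 to 0.679. Tnnt3, fast troponin T, which ties the troponin complex to tropomyosin, had the highest mean level per length of the role (127 TPM). Tnnt3 was at 371, 348 and 0.146 CPM in the controls, at 0 in A24, at 0.095, 0.059 and 0.095 CPM in A25, A26 and A29, and at 45.9 CPM in A31. The fast calcium-binding and inhibitory subunits Tnnc2 and Tnni2 were also highest in A7 and A8 and next highest in A31. They were at 16.9 and 18.8 CPM in A31 and at most 0.169 and 0.056 CPM in the 5 low libraries.

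The slow troponins differed from these in A31. Tnnt1, the slow troponin T, was at 17.9, 8.84 and 0.167 CPM in A7, A8 and A12 and at 1.13, 1.04, 0.370, 0.133 and 0.439 CPM in A24, A25, A26, A29 and A31. A31 was therefore inside the range of the other Adipo-HuR-/- libraries for Tnnt1 (log2 difference -3.99, SE 1.01, edgeR adjusted p = 0.0938). Tnni1, slow troponin I, was at 12.2, 4.10 and 0 CPM in the controls and at 0, 0.142, 0.044, 0.208 and 0.106 CPM in the same order. Tnnc1, the slow and cardiac troponin C, was at 10.1, 5.85 and 0.355 CPM in the controls and at 2.20, 1.38, 1.29, 2.20 and 1.51 CPM in A24, A25, A26, A29 and A31, so that it had a low level in every library.

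Lmod2, a leiomodin that acts on thin filament length, had the most negative difference of the role (log2 difference -5.80, SE 1.49, edgeR adjusted p = 0.0970). It was at 15.9, 8.001 and 0 CPM in the controls, at 0 in A24, A25 and A26, at 0.019 CPM in A29 and at 0.530 CPM in A31. Neb, the giant nebulin along the thin filament, was at 167, 43.7 and 0.606 CPM in the controls and at 0.226, 1.42, 1.14, 1.12 and 14.996 CPM in A24, A25, A26, A29 and A31. Tpm3, a tropomyosin also made outside muscle, had the smallest difference, at 75.8, 44.2 and 51.1 CPM in the controls and 63.1, 42.3, 43.1, 37.0 and 40.2 CPM in the other group (log2 difference -0.34, SE 0.22, edgeR adjusted p = 0.480).

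Z-disc genes and desmin (9 listed, 9 past the filter) were lower in 9 of 9, with a median log2 difference of -4.52 and none past the threshold by edgeR's quasi-likelihood test (9 at an unadjusted p under 0.05, 4 called by DESeq2, 4 by the likelihood ratio test and 0 by voom). Myoz2, the slow and cardiac calsarcin, had the most negative difference, at 6.43, 5.37 and 0.042 CPM in A7, A8 and A12 and at 0, 0, 0.030, 0.114 and 0.242 CPM in A24, A25, A26, A29 and A31 (log2 difference -5.31, SE 1.16, edgeR adjusted p = 0.0672). Myoz1, the fast calsarcin, was at 33.3, 38.6 and 0.063 CPM in the controls, at 0 in A24, A25 and A29, at 0.015 CPM in A26 and at 4.59 CPM in A31. Actn3, the alpha-actinin of fast fibres, was at 88.8, 53.5 and 0.063 CPM in the controls, at 0, 0.047, 0.074 and 0.038 CPM in A24, A25, A26 and A29, and at 11.997 CPM in A31. Its partner Actn2, made in all fibre types and in the heart, was at 32.1, 16.5 and 1.21 CPM in the controls and at 2.76, 2.09, 2.90, 3.13 and 3.85 CPM in the other group. Des, the intermediate filament desmin, also made by smooth muscle, was the most abundant gene of the role per length (42.6 TPM) and the one that differed least. Des was at 121, 157 and 56.2 CPM in the controls and at 56.8, 32.8, 46.8, 46.6 and 77.5 CPM in A24, A25, A26, A29 and A31 (log2 difference -1.10, SE 0.33, edgeR adjusted p = 0.129). In Des A7 and A8 were the highest libraries and A31 the next, and A12 lay below A24 and A31.

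Titin and M-band genes (4 listed, 4 past the filter) were lower in 3 of 4, with a median log2 difference of -2.71 and none past the threshold by edgeR's quasi-likelihood test (3 at an unadjusted p under 0.05, 1 called by DESeq2, 2 by the likelihood ratio test and 0 by voom). Ttn, the titin spring that spans from Z-disc to M-band, was at 299, 67.2 and 0.146 CPM in A7, A8 and A12 and at 0.395, 0.237, 0.178, 0.417 and 31.9 CPM in A24, A25, A26, A29 and A31 (log2 difference -4.16, SE 1.85, edgeR adjusted p = 0.285). Myom3, an M-band protein, was at 12.9, 8.51 and 5.62 CPM in the controls and at 9.76, 8.92, 9.04, 10.5 and 7.48 CPM in the other group. It had the highest mean per length of the role (4.86 TPM) and was the 1 gene of the 46 with a positive difference (log2 difference 0.02, SE 0.25, edgeR adjusted p = 0.976).

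Genes of energy supply, signalling and turnover (10 listed, 10 past the filter) were lower in 10 of 10, with a median log2 difference of -4.07, and 1 passed the threshold. Ckm, the muscle creatine kinase, had the highest mean level per length (68.3 TPM) and was at 273, 237 and 0.230 CPM in A7, A8 and A12. Ckm was at 0.056, 0.095, 0.163, 0.152 and 33.2 CPM in A24, A25, A26, A29 and A31 (log2 difference -4.61, SE 1.96, edgeR adjusted p = 0.264). Abra, an actin-binding protein of striated muscle, was at 3.03, 1.95 and 0.376 CPM in the controls and at 0.169, 0.047, 0.015, 0.038 and 0.182 CPM in A24, A25, A26, A29 and A31. Its groups did not overlap, and A12 held 18 counts against 12 in A31 (log2 difference -4.34, SE 0.79, edgeR adjusted p = 0.0444). Smpx, a small protein of the costamere, had the most negative difference, at 4.53, 11.9 and 0 CPM in the controls and 0.056, 0, 0.015, 0 and 0.500 CPM in A24, A25, A26, A29 and A31 (log2 difference -5.28, SE 1.44, edgeR adjusted p = 0.107). Mb, the oxygen carrier myoglobin, differed least and was at 75.6, 122 and 4.99 CPM in the controls and at 9.47, 2.42, 23.1, 2.86 and 28.4 CPM in the other group (log2 difference -2.34, SE 0.93, edgeR adjusted p = 0.234). In Mb A26 reached nearly the level of A31, which Ckm, at 0.163 CPM in A26, did not share.

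The isoform make-up could be read in the 3 libraries with at least 100 counts over the adult heavy chain genes Myh1, Myh2, Myh4 and Myh7, which were A7 (86024 counts), A8 (21667) and A31 (8633). The other 5 libraries held 2 to 9 counts over these genes. Each share below is given by library with its exact (Clopper-Pearson) 95% interval, which covers counting error only. The fast genes Myh1, Myh2 and Myh4 made up 95.6% of adult heavy chain counts in A7 (95.5% to 95.8%), 98.3% in A8 (98.1% to 98.5%) and 99.8% in A31 (99.7% to 99.9%). Per length the fast shares were 95.7%, 98.3% and 99.8%, as the 4 transcripts are close in length at 6012 to 6135 bases.

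Within the fast genes the libraries also differed. Myh4 was the largest part in each, at 75.3% in A7 (75.0% to 75.5%), 83.2% in A8 (82.7% to 83.7%) and 80.9% in A31 (80.1% to 81.7%). Myh1, the intermediate fast chain, was at 12.3% in A7 (12.1% to 12.5%), 8.25% in A8 (7.89% to 8.63%) and 16.2% in A31 (15.4% to 17.0%). Myh2, the fast oxidative chain, was at 8.10% in A7 (7.92% to 8.28%), 6.83% in A8 (6.498% to 7.17%) and 2.71% in A31 (2.38% to 3.08%). Slow Myh7 was at 4.35% in A7 (4.22% to 4.49%), 1.69% in A8 (1.53% to 1.87%) and 0.151% in A31 (0.080% to 0.257%). With the highest transcript of each gene alone its share was 5.35%, 1.82% and 0.025%, the last resting on 2.15 counts. The intervals of the 3 libraries were apart for each of the 4 genes. A31 had the smallest shares of the oxidative chains Myh2 and Myh7 and the largest share of Myh1.

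**Figure D2:**
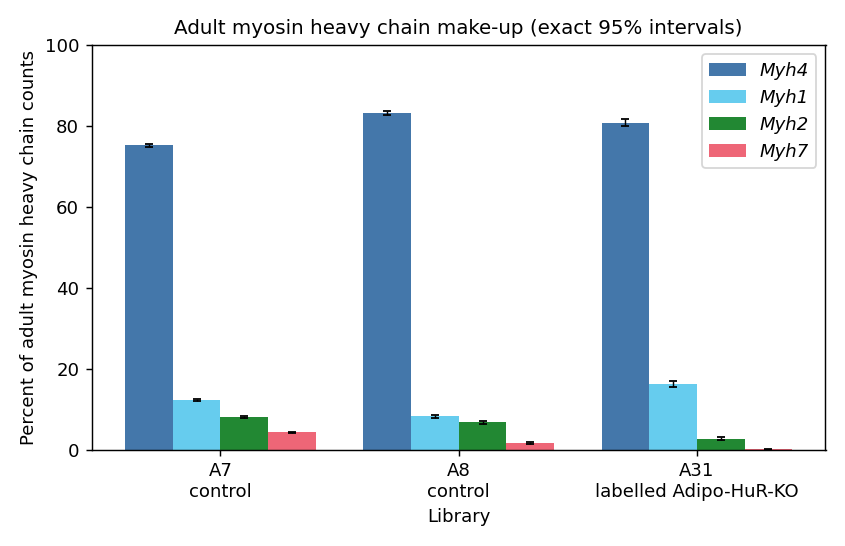
Share of each adult myosin heavy chain gene in the counts over Myh1, Myh2, Myh4 and Myh7, in percent, in the 3 libraries with at least 100 such counts; error bars are exact 95% intervals for counting error. Myh4 takes 75.3% to 83.2% in each, and Myh7 takes 4.35% in A7, 1.69% in A8 and 0.151% in A31.

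Pairs of fast and slow genes from other parts of the sarcomere gave the slow member's share by library in the same way. In the regulatory light chains, slow Myl2 took 10.7% in A7 (10.2% to 11.3%), 6.82% in A8 (6.299% to 7.38%) and 1.04% in A31 (0.553% to 1.77%). In troponin I, slow Tnni1 took 7.97% in A7 (7.44% to 8.54%), 2.39% in A8 (2.04% to 2.78%) and 0.561% in A31 (0.226% to 1.15%). In troponin T, slow Tnnt1 took 4.62% in A7 (4.35% to 4.89%), 2.48% in A8 (2.23% to 2.75%) and 0.947% in A31 (0.635% to 1.36%). These families and the heavy chains thus had the same order, with the slow share largest in A7 and smallest in A31. The calsarcins had it as well, with slow Myoz2 at 16.2% in A7 (14.7% to 17.7%), 12.2% in A8 (10.7% to 13.9%) and 5.02% in A31 (2.89% to 8.02%).

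The remaining pairs did not all follow it. In troponin C the slow Tnnc1 took 6.41% in A7 (5.93% to 6.91%), 3.76% in A8 (3.3002% to 4.27%) and 8.22% in A31 (6.74% to 9.904%). In A29, which had 118 counts over the pair, Tnnc1 took 98.3% (94.01% to 99.8%), and with the highest transcript of each gene alone A31 lay between A7 and A8 (fast share 93.8% in A7, 96.3% in A8 and 94.02% in A31). In the essential light chains Myl3 took 5.36% in A7 (4.999% to 5.73%), 1.996% in A8 (1.72% to 2.297%) and 2.16% in A31 (1.69% to 2.73%), and between 2.53% (A12) and 9.38% (A29) in the 5 low libraries. The intervals of A8 and A31 overlapped, and with the highest transcript alone Myl3 took 5.26% in A7, 1.47% in A8 and 0.577% in A31. For both families the gene counted as slow had counts in all 8 libraries, at 0.355 CPM or more for Tnnc1 and 1.01 CPM or more for Myl3. In alpha-actinin the Actn2 share was 26.5% in A7 (25.5% to 27.5%), 23.5% in A8 (21.9% to 25.1%) and 24.3% in A31 (21.7% to 26.99955%). Where Actn3 had 5 and 2 counts the Actn2 share was 97.5% in A26 (94.3% to 99.2%) and 98.8% in A29 (95.7% to 99.9%). In the myosin binding proteins C the slow type by name is Mybpc1, which is outside the list of slow or cardiac isoform genes used below. Mybpc1 took 64.7% in A7 (63.8% to 65.6%), 57.7% in A8 (55.9% to 59.4%) and 55.1% in A31 (51.9% to 58.4%), more than the fast type in each. With the highest transcript of each gene alone this turned, and fast Mybpc2 took 51.4%, 60.9% and 57.1%.

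Relative to A7, the 11 fast isoform genes were lower in A31, with a median log2 ratio of -3.01, from -4.99 for Myh2 to -2.25 for Myl1. The 8 slow or cardiac isoform genes had a median log2 ratio of -5.04, from -8.27 for Myh7 to -2.74 for Tnnc1. Mybpc1 and Actn2, counted as slow only in their pairs, were not among the 8 and had log2 ratios of -3.88 and -3.06. Over all 50 genes the median log2 ratio of A31 to A7 was -3.15. The log2 ratio was -6.74 for Myl2 (interval -7.65 to -5.96) and -6.85 for Tnni1 (-8.17 to -5.80), against -3.22 for Mylpf (-3.31 to -3.14) and -2.91 for Tnni2 (-2.99 to -2.82). The ratios describe 2 animals and not the groups, and their intervals cover counting error only.

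**Figure D3:**
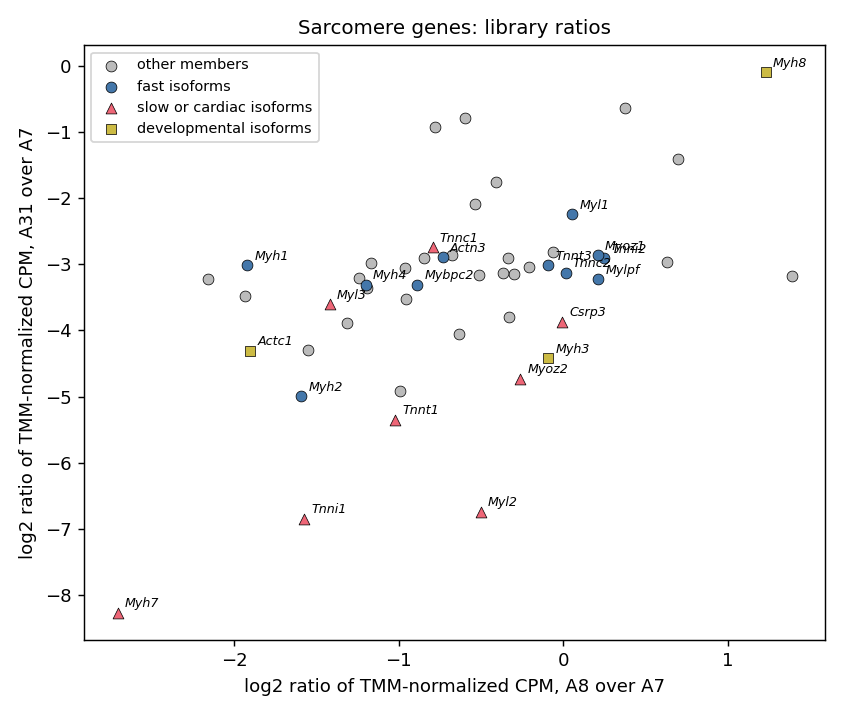
Log2 ratio of TMM-normalized CPM for each of the 50 sarcomere genes in A8 over A7 (x axis) and in A31 over A7 (y axis), with fast, slow or cardiac and developmental isoforms marked. Most fast isoforms lie near -3 on the y axis, and Myh7, Tnni1, Myl2 and Tnnt1 lie below -5.

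The ratios between A8 and A7 were lower for longer transcripts. The median log2 ratio of A8 to A7 over the 50 genes was -0.62, from -2.71 for Myh7 to 1.39 for Smpx. Among all other genes with a mean of at least 100 counts, the median log2 ratio of A8 to A7 was 0.77 for the 824 genes with a transcript of up to 1000 bases and -0.50 for the 1287 genes in the class of the longest transcripts. In the same length classes the median over the sarcomere genes was 0.02 for 9 genes and -1.75 for 8 genes. Across genes, which are not independent replicates, Spearman's rank correlation of this ratio with length was -0.47 over the 50 sarcomere genes and -0.53 over 10647 others. The ratio of A31 to A7 had a rank correlation of -0.0040 with length over the 50 genes. Among the other genes this ratio also went down with length, from a median log2 ratio of 0.34 in the shortest class to -0.27 in the longest, and that of A24 to A7 from 0.78 to -0.68. The adult heavy chains, which differ little in length, had log2 ratios of A8 to A7 from -2.71 (Myh7) to -1.20 (Myh4).

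Developmental isoforms were at low levels, and Actc1, with 111 counts in A7 and 19 in A8, was the highest of them. Myh3, the embryonic heavy chain, had 20 counts in A7, 12 in A8, 0 in A12, A24 and A25, and 2, 3 and 1 in A26, A29 and A31. Myh8, the perinatal heavy chain, had 3.50, 5.71 and 1.27 counts in A7, A8 and A12 and 1.13, 1.03, 6.18, 15.4 and 3.92 counts in A24, A25, A26, A29 and A31, and so was highest in A29, which had 8.97 counts over the adult heavy chain genes. Together Myh3 and Myh8 made up 0.028% (0.018% to 0.041%) of the counts over the 6 heavy chain genes in A7, 0.083% (0.049% to 0.131%) in A8 and 0.058% (0.019% to 0.135%) in A31. Actc1, the actin of heart and developing muscle, was at 1.80, 0.481 and 0.021 CPM in the controls and at 0.113, 0.047, 0.059, 0.152 and 0.091 CPM in A24, A25, A26, A29 and A31. In A7, per length, Acta1 was at 714 TPM and Actc1 at 2.02 TPM.

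For some of the genes present in every library, the transcripts behind the counts differed between libraries, while Des, for example, had the same leading transcript in all 8. The split of a gene's counts among its transcripts is an estimate made by the counting program and is less certain than the gene total. The transcript counts below are not scaled for library size, which was smallest in A24 and A25. For Tpm1 the transcript Tpm1-205 (1208 bases) had 11739 counts in A7, 5433 in A8 and 1649 in A31, and 62 to 149 in the other 5 libraries. Tpm1-211 (1607 bases) had 3737 counts in A7, 1602 in A8, 1851 in A31 and 535 to 1756 in the other 5. Tpm1-205 led in A7 and A8, with 68.6% and 72.0% of the counts of Tpm1. In A31 it made up 38.4%, against 43.1% for Tpm1-211. In the other 5 libraries Tpm1-211 made up 56.7% to 74.1%. Tpm2 had its leading transcript (2098 bases) at 11058, 5764 and 1168 counts in A7, A8 and A31 and at most 33 elsewhere. Tpm2-203 had 3262, 1712 and 553 counts in A7, A8 and A31 and 97 to 427 in the other 5. Of the counts of Tpm2, Tpm2-203 made up 22.7%, 22.8% and 31.9% in A7, A8 and A31. In the other 5 libraries it made up 85.1% to 94.4%. For Tpm3, Tpm3-204 had 1330 counts in A7, 663 in A8 and 45 in A31 and at most 14 elsewhere, whereas Tpm3-201 was at 1539 in A7, 461 in A8 and 1909 in A31 and at 611 to 2139 in the other 5. The small difference of Tpm3 as a gene thus joined a transcript that was nearly restricted to A7 and A8 with one that was in all 8 libraries.

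Myom3 and Ldb3 showed the same division. Myom3-201 (5575 bases, protein coding) had 290 counts in A7, 41 in A8 and 11 in A31 and at most 5 in the other libraries, while Myom3-203 (2551 bases, annotated as a retained intron) had 173 to 605 counts in every library. Ldb3-203, Ldb3-205 and Ldb3-204 had 936, 777 and 517 counts in A7 and at most 3 in the 5 low libraries, and a further transcript (2468 bases) had 7 to 49 counts in every library. In Myl1 the same transcript (803 bases) led in all 8 libraries, with 317 counts or more.

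Other genes of the muscle fibre, from lists outside the 50, were read beside them. Excitation-contraction coupling genes (15 of 15 past the filter) were lower in 15 of 15, with a median log2 difference of -4.14 and none past the threshold by edgeR's quasi-likelihood test (12 at an unadjusted p under 0.05, 3 called by DESeq2, 3 by the likelihood ratio test and 0 by voom). Their most abundant gene per length was Pvalb, the calcium buffer of fast fibres, with a mean of 49.5 TPM against 41.1 TPM for Atp2a1. By CPM Atp2a1 was higher, as given above. Pvalb was at 136 CPM in A7, 139.7 CPM in A8 and 16.0 CPM in A31 and at 0 in the other 5 libraries. The summed level of this list was 966, 591 and 50.9 CPM in A7, A8 and A12 and 37.4, 37.5, 54.0, 43.5 and 158 CPM in A24, A25, A26, A29 and A31. Muscle energy enzymes (9 of 9 past the filter) were lower in 9 of 9 with a median of -3.06, none past the threshold by edgeR's quasi-likelihood test and 7 at an unadjusted p under 0.05, while DESeq2 and the likelihood ratio test each called 4 and voom 0. They summed to 496, 416 and 119 CPM in A7, A8 and A12 and to 124, 126, 138, 149 and 170.3 CPM in A24, A25, A26, A29 and A31. Their most abundant gene per length was Pfkm, and Ampd1, the adenylate deaminase of muscle, was at 0 in A12, A24, A25, A26 and A29 and at 13.8, 9.75 and 1.33 CPM in A7, A8 and A31.

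Muscle membrane genes (8 of 13 past the filter) were lower in 7 and higher in 1, with a median of -2.64, none past the threshold by edgeR's quasi-likelihood test and 4 at an unadjusted p under 0.05. DESeq2 called 0 of these genes, the likelihood ratio test 1 and voom 0. The membrane genes summed to 82.3, 51.8 and 48.4 CPM in A7, A8 and A12 and to 27.6, 30.8, 37.7, 52.2 and 42.6 CPM in A24, A25, A26, A29 and A31. The most abundant gene per length was Dysf, present in all 8 libraries. Of the myogenic regulators, Myf6, which is kept on in adult fibres, was at 1.86, 1.70 and 0.197 CPM in A7, A8 and A31 and at 0 in the other 5 libraries. Myod1, Myog, Myf5, Pax7 and Pax3, which mark satellite cells and early myogenesis, did not pass the filter and were at 0.178 CPM or less in every library. The gamma subunit of the acetylcholine receptor, Chrng, the fetal form, was at 0 in all 8 libraries.

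Markers of other cell types did not follow this order. Of 8 cardiac markers 2 passed the filter, 1 lower and 1 higher, none past the threshold by edgeR's quasi-likelihood test, with 1 in each direction at an unadjusted p under 0.05 and 1 lower by DESeq2, 0 by the likelihood ratio test and 0 by voom. The list summed to 4.79, 3.16 and 5.93 CPM in A7, A8 and A12 and 3.78, 1.90, 2.16, 2.25 and 2.62 CPM in A24, A25, A26, A29 and A31, of which Myl4, the most abundant, made up the larger part in each control. Myh6, the atrial and mouse ventricular heavy chain, was at 0.162 CPM in A7 and at 0 in A8, and Myl7 and Nppb were at 0 in all 8. Smooth muscle markers (6 of 7 past the filter, 3 lower and 3 higher, median 0.0082, most abundant per length Tagln, none called by any of the 4 tests and 1 lower at an unadjusted p under 0.05) summed to 48.8, 63.8 and 54.4 CPM in the controls and 53.0, 56.1, 56.6, 58.3 and 52.1 CPM in the other group.

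The tissue label was checked against markers of brown adipocytes, which were all present in every library. They were lower in 8 of 12 and higher in 4, with a median log2 difference of -0.11 and none past the threshold by edgeR's quasi-likelihood test (1 higher at an unadjusted p under 0.05, 0 called by DESeq2, the likelihood ratio test or voom). The list summed to 16897, 33019 and 23951 CPM in A7, A8 and A12 and to 28117, 15866, 21372, 20925 and 25272 CPM in A24, A25, A26, A29 and A31. The uncoupling protein Ucp1 was at 4843, 11438 and 9483 CPM in A7, A8 and A12. With TMM the 2 libraries with the most sarcomere RNA were thus the lowest and the highest control for Ucp1. As TPM, A7 was again the lowest control (4908 TPM), but A12 (7722 TPM) was above A8 (6424 TPM). White adipocyte markers (2 of 4 lower, most abundant per length Retn), endothelial markers (6 of 6 higher, most abundant per length Cdh5) and macrophage markers (5 of 6 lower, most abundant per length Lyz2) had medians of 0.45, 0.21 and -0.43 and none past the threshold by edgeR's quasi-likelihood test. At an unadjusted p under 0.05 these 3 lists had 1 lower and 2 higher, 0, and 0, and by DESeq2 1 white adipocyte marker was called higher and 0 of the rest, while the likelihood ratio test and voom called 0. Their sums ranged over the 8 libraries from 28.5 to 80.3 CPM (white adipocyte), 306 to 515 CPM (endothelial) and 30.3 to 112 CPM (macrophage). The part of other cell types in the difference between the labelled groups was not tested.

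Some of these counts are less certain because sequence is shared. Of the 31-base words in the leading transcript of Myh1, 28.4% also occurred in Myh2 and 19.4% in Myh4, and of those of Myh7, 32.2% occurred in Myh6 but at most 0.688% in any of Myh1, Myh2, Myh4, Myh3 and Myh8. The 8 fast and slow pairs shared no such word, except Actn3 and Actn2 with 21. Myh3, Myh2, Myh1, Myh4 and Myh8 lie in that order in 1 cluster on chromosome 11 (GRCm38, 67078300 to 67308634, + strand), and Myh7 lies on chromosome 14 (54970684 to 54994626, - strand). The other genes past the threshold are Myl1 on chromosome 1 (66924295 to 66945404, - strand), Myl2 on chromosome 5 (122100951 to 122113472, + strand) and Abra on chromosome 15 (41864076 to 41869720, - strand). Exons of Cmya5, Mb, Des, Neb, Xirp2, Myh7, Myh1, Myh2, Ckm and Ttn overlap annotated antisense genes, by up to 2451 bases in Cmya5, those of Mybph overlap Adora1 on the other strand by 1162 bases, those of Tnnc2 overlap Ube2c by 592 bases and those of Myl2 overlap Ccdc63 by 60 bases. Exons of Myl3, Mybpc1, Mybpc2 and Myom1 also overlap genes on the other strand. Whether the counting used strand is not given in the sources used here, so that reads of such partners cannot be told apart.

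Promoter windows were read for features the genes share. RefSeq windows of 300 bases (GRCm38.p6, 250 before to 50 after the start) matched 38 of the 50 genes by symbol, and 34 of these lay within 500 bases of the start of the leading transcript. Myom2, Tnni2, Tnnt3, Myoz1, Myot, Neb, Xirp1, Tcap, Abra, Actn3, Lmod3 and Mylk2 had no entry. On either strand CAGCTG, a form of the CANNTG E-box that myogenic factors bind, was in 14 of 34 windows (41.2%) and in 15.2% of the 14443 windows of all genes chosen the same way. CANNTG itself, which takes in CAGCTG, was in 30 of 34 (88.2%, against 67.9%). CATTCC, the MCAT element, was in 11 of 34 (32.4%, against 13.1%), and TATAAA was in 9 of 34 (26.5%, against 12.2%). The MEF2 and CArG motifs, each searched by its consensus, were in 6 of 34 windows each (17.6%, against 2.53% and 1.54%), and TATAAA overlapped a MEF2 match in 2 windows. A match describes letters in the window and not a bound site.

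The 100 bases before the RefSeq start are shown for the 4 adult heavy chain genes, on which the fast and slow shares rest, and for Acta1, as GRCm38.p6 5′ to 3′ on the strand of the gene. Capitals mark a match, on either strand, of TATAAA, of the E-box form searched, of the MCAT letters or of CArG. Myh4 is chr11:67237712-67237811, Myh1 is chr11:67200002-67200101 and Myh2 is chr11:67170927-67171026, all on the + strand, and Myh7 is chr14:54994627-54994726 and Acta1 is chr8:123894776-123894875, both on the - strand.
Myh4: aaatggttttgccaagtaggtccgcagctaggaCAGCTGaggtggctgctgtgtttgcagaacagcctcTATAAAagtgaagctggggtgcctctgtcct
Myh1: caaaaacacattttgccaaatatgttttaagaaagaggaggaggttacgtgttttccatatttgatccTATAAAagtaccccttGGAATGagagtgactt
Myh2: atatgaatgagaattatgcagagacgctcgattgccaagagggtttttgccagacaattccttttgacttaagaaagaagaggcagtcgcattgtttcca
Myh7: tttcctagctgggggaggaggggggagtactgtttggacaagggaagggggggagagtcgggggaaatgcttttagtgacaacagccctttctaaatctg
Acta1: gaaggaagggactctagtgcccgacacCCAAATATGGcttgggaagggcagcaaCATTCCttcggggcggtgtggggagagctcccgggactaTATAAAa

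Myh4 held TATAAA and the E-box form, Myh1 held TATAAA and an MCAT match, Acta1 held TATAAA, an MCAT and a CArG match, and Myh2 and Myh7 held none of these matches in the 100 bases shown. Ckm, read the same way and not printed, also held none. The RefSeq start lay 217, 302 and 193 bases from the start of the leading transcript for Myh4, Myh1 and Myh2. For Myh7 and Acta1 the distance was 0 and 24 bases.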

How the data were processed

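RNA-seq was done on poly(A) RNA of interscapular brown fat from 8 mice. The authors deposited 1 table of estimated counts per transcript for each library, not normalized, over 105129 transcripts of GRCm38; read mapping was done by the authors in CLC Genomics Workbench, and the program that wrote the estimated counts is not given in the sources used here. Groups follow the labels (3 control, 5 Adipo-HuR-/-); a figure legend of the study gives the group sizes the other way round. The members and gene lists were chosen with earlier results of these data known.

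Estimated counts were summed per gene symbol and rounded. After filterByExpr and TMM, groups were compared by edgeR 4.0.16 (quasi-likelihood F-test, R 4.3.3), with Benjamini-Hochberg adjustment over 14851 genes. The script was checked on simulated data. SE is the log2 difference divided by the root of F. DESeq2 1.42.0, limma 3.58.1 and further settings were alternatives. Exact permutation tests and Clopper-Pearson 95% intervals used scipy. TPM used lengths of GENCODE M21, which 103635 transcripts had. TMM factors ran from 0.763 (A8) to 1.20 (A25). A floor of 3 counts is 0.171 CPM of total counts in A25 and 0.044 CPM in A26. Intervals and floors cover counting error only. Named were the adult and developmental heavy chains, both genes of each fast and slow pair, Acta1, Actc1, Ckm, Mb, Ttn, Neb, Des, each gene past the threshold and, per role, the most abundant gene per length and those with the largest fall and the smallest change. Genes named for their transcripts, their overlaps or their promoters, and those named from other lists beyond the most abundant and those at 0, were chosen after their values were seen. The myogenic regulators as a list and the Schwann and neuronal markers are not reported.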

Additional observations from a re-analysis of the deposited data

Results flagged for a closer look

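In the 5 Adipo-HuR-/- libraries 1 library stood far from the rest for the summed level of the 50 sarcomere genes and for 31 of the genes, by a gap to its neighbour that exceeded Dixon's critical value of 0.71 times the range. Chance flags about 1 in 20 groups of normally spread values, and the genes share their libraries, so that these are not separate events. That rate does not hold for genes at or near 0 counts in A24, A25, A26 and A29. For Myl2 and Myot, at 0 in these libraries, any count in A31 gives a gap of 1.00. The library was A31, always as the highest, in 30 of the 32 cases. The gap took 0.88 of the range for the summed level. It took 1.00 of the range for Myh1, Myh4, Myl2, Tnni2, Tnnt3, Myot, Myoz1 and Ckm, 0.99 for Mybpc1, Acta1, Tnnc2, Actn3, Tcap, Ttn and Xirp2, 0.98 for Myh2, Mybpc2 and Mylk2 and 0.97 for Mylpf and Csrp3. It took 0.96 for Lmod2, 0.95 for Myom2, 0.92 for Neb and Klhl41, 0.89 for Smpx, 0.86 for Cmya5, 0.84 for Ldb3, 0.79 for Tpm2 and 0.74 for Lmod3. The other 2 cases were Myh8, highest in A29 with a gap of 0.82 of the range at 15.4 counts, and Tpm3, highest in A24 with a gap of 0.77. Of the 8 slow or cardiac genes, Myl2 and Csrp3 were among those for which A31 stood apart, and Myh7, Myl3, Tnnc1, Tnni1, Tnnt1 and Myoz2 were not.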

How the results depend on the processing

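The number of sarcomere genes past the threshold was 4 with DESeq2's size factors, with TMM without the muscle genes, with a mean of at least 10 counts and with no fold threshold, and 3 with total counts. It was 7 without a filter (87 of all genes called lower, 0.395%), 16 at an adjusted p of at most 0.1 (286, 1.93%), 19 with DESeq2's Wald test and 22 with the likelihood ratio test. It was 0 with limma voom (5 genes at an unadjusted p under 0.05), with the highest transcript (32) and without A24 and A25 (24), and from 0 to 23 with 1 library left out. Of all genes, 9.54% were lower at that p with voom, 7.72% with the highest transcript and 7.41% without A24 and A25. Over all genes, 105 calls became 823 with DESeq2's Wald test, 655 with the likelihood ratio test, 157 with voom, 16 with the highest transcript, 5 without A24 and A25, 4 without A7, A8 and A31, and 10 to 190 with 1 library left out. The median log2 difference of the sarcomere genes tested kept its sign in 18 of 19 alternatives, at -2.36 with limma voom, and was 0.65 without A7, A8 and A31. These 3 libraries were left out for their sarcomere level, and 1 control library, A12, remains and is assumed to vary like the other group. In that fit the log2 difference was also positive for Mylpf (0.35), Myl3 (0.82), Acta1 (1.21), Tnnc1 (2.30), Tnni1 (5.16), Tnnt1 (1.89), Actn2 (1.17), Mb (0.93), Ttn (1.03), Neb (0.71), Tpm1 (0.0015) and Tpm2 (0.65). It was positive for Tpm3 with the highest transcript (0.39), and negative for Myom3 without A24 and A25 (-0.0077) and in 4 of 8 fits with 1 library left out (which ran from -0.23 without A12 to 0.37 without A7, with -0.039 without A29, -0.016 without A8 and -0.013 without A24). The cause was not tested. With total counts in place of TMM the summed level was 2736 CPM in A8, 845 CPM in A31 and 225 CPM in A25, and A7, A8 and A31 were the 3 highest under each scaling. As an alternative chosen after seeing the data, the exact permutation p of the level of Myl1, 0.0357 with TMM, was 0.0714 with total counts, and that of Abra was 0.0357 with each scaling. The fast share of adult heavy chains from the highest transcript alone was 94.6% in A7 and 99.97% in A31, outside the counting intervals, and the order of A7, A8 and A31 was kept. The floor of 3 counts was highest in A24 and A25, at 0.164 and 0.171 CPM of total counts.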
